A study of Mus musculus with 9 samples.

Results

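The genes described here are 41 genes of the extracellular matrix: collagen and laminin chains, the proteins that link them, matrix glycoproteins, lysyl oxidases and a collagen chaperone. They were taken by name from a written list, with no threshold on a measured value, though earlier results of these data were known when the list was written. Each of the 41 matched 1 gene identifier among the 55416 genes in the count tables. The edgeR filter on low counts kept 32 of them among 13439 genes tested, and 9 were too low to test.

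RNA was sequenced from 4T1 cells, a mammary carcinoma line of BALB/c mice, in 9 libraries. The PBS group (3 libraries, labelled untreated) had DMEM medium alone. The MRC group (3 libraries) had MRC nanoparticles in DMEM for 12 h. The MRC+L group (3 libraries) had the same particles for 12 h and was irradiated with a 660 nm laser for 3 min. The sample labels give the irradiance as 180 mW per square cm, while the protocol text prints mV as the unit. The labels do not spell out MRC. All groups are the same cell line, and no group had light without particles, so light alone is not compared here. Nothing in the labels ties the libraries to separate cultures. The p-values therefore measure only how far these libraries scattered, which may be technical.

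The matrix around cells has a sheet-like part, the basement membrane, and a fibrous interstitial part. In the basement membrane, laminin trimers of an alpha, a beta and a gamma chain and networks of type IV collagen are joined by nidogen and the heparan sulphate proteoglycan perlecan. Fibrillar collagens are folded in the endoplasmic reticulum with the help of the chaperone HSP47, trimmed outside the cell, and crosslinked by lysyl oxidases. Matricellular proteins such as SPARC, thrombospondin-1 and the CCN family bind this matrix and modulate adhesion and growth factor signals without building it. Carcinoma cells of epithelial origin typically make basement membrane chains themselves, whereas most interstitial collagen in a tumour comes from fibroblasts.

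The sequences just before the start sites of 5 members are shown because these genes were called in both comparisons with PBS: Col16a1, Col18a1 and Lamb1 as lower with small adjusted p-values, Serpinh1 as higher, and Ccn1 as the textbook target of YAP and TEAD. Each is the 250 bases upstream of the start in RefSeq (build GRCm38.p6), read 5′ to 3′ on the gene's own strand. Col18a1 has a further RefSeq start, whose upstream bases (chr10:77113706-77113955) are not printed. Capitals in the first 4 mark GC boxes (GGGCGG or its reverse CCGCCC) and CCAAT boxes (CCAAT or its reverse ATTGG). Capitals in Ccn1 mark the TEAD motif GGAATG, here in its reverse form CATTCC, and the TATA motif TATAAA, while its GC boxes are left in lower case.
Col16a1 (chr4:130047590-130047839, plus strand): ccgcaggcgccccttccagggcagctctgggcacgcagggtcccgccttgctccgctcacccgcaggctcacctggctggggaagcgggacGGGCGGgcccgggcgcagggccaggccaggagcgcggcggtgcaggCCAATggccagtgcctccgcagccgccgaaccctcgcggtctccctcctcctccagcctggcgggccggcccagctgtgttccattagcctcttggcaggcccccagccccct
Col18a1 (chr10:77166531-77166780, minus strand): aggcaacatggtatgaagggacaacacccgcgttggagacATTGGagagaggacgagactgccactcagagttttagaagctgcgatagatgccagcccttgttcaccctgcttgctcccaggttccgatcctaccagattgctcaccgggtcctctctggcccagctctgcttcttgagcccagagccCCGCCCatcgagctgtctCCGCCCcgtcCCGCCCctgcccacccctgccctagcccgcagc
Lamb1 (chr12:31265043-31265292, plus strand): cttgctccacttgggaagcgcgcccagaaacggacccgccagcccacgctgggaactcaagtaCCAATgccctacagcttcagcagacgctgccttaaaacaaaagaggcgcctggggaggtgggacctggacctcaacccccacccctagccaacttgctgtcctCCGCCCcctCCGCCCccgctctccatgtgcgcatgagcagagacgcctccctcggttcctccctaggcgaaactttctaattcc
Serpinh1 (chr7:99353240-99353489, minus strand): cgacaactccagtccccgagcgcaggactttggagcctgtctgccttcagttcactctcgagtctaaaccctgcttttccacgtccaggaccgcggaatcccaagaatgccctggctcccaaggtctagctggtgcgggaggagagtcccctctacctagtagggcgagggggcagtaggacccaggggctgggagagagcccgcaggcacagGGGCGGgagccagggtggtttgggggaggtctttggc
Ccn1 (chr3:145649986-145650235, minus strand): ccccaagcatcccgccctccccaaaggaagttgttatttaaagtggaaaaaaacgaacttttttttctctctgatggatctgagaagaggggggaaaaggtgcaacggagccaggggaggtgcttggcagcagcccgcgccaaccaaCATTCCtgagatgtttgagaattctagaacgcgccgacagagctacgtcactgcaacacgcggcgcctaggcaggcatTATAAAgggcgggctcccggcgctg

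Counting upstream from the start, the Col18a1 GC boxes lie at bases 61 to 56, 43 to 38 and 33 to 28, those of Lamb1 at 84 to 79 and 75 to 70, the one of Col16a1 at 159 to 154 and the one of Serpinh1 at 37 to 32. In Ccn1 the TEAD motif lies at 103 to 98 and the TATA motif at 25 to 20. RefSeq windows of 300 bases (250 before and 50 after a start) were found for 30 of the 41 members, and both strands were searched. GC boxes were in the windows of 24 of these 30 genes (19 of the 24 that were tested). They were in 61.9% of 12346 windows of all tested genes and in 35.7% of 32851 windows in all. CCAAT boxes were in 11 of 30, against 37.9% of windows of tested genes. The TATA motif was in 4 (Ccn1, Col17a1, Col3a1 and Tnc), against 7.09%, and the TEAD motif in 6 (Ccn1, Col18a1, Col3a1, Col6a2, Lamb3 and Nid1), against 12.1%. In Col18a1 the TEAD motif lies before the further start and not in the printed bases. The AP-1 motif TGANTCA was in 1 member (Col6a1), against 5.49%, and the antioxidant response core TGACNNNGC in 4 (Ccn1, Col4a2, Col6a2 and Col7a1), against 14.4%. The heat shock motif GAANNTTC was in 2 (Col4a5 and Fstl1), against 5.70%. Median GC content was 60.3% over the 28 windows of tested members and 60.7% over the windows of all tested genes. A member was counted if any of its windows held the motif, and the 30 genes had 35 windows. The percentages are shares of single windows, and those of tested genes leave out untested genes, which the 30 include. The counts of members and these shares are therefore not on the same base. These matches describe letters only, and binding was not measured.

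Library totals lay between 15019765 and 20044166 counts, and 3 counts, the most that a count of 0 allows, correspond to 0.15 to 0.20 CPM, counts relative to the total of their own library. That limit covers counting error only. All levels below are CPM further scaled by TMM factors. PBS replicate 2 stood apart from the other 8 libraries. Relative to the mean library, its median log2 level in short genes (at most 1366.8 exonic bases) exceeded that in long genes (at least 9527.8) by 1.25, whereas the other libraries had -0.32 to 0.14. This bears on the matrix genes because they are long, with a median exonic length of 6876 bases over the 32 tested members and 4121 over all tested genes. The keratins Krt8 (4573 to 15391 counts) and Krt18 (2596 to 13997) were high, as in epithelial cells, and Krt7 had 1164 to 2436 counts. The other epithelial markers were low, with Cdh1 at 33 to 99 counts, Krt14 at 2 to 36, Cldn4 at 3 to 17, Cldn7 at 0 to 6 and Epcam at 0 to 5. Among markers of other cells, Emcn of endothelium and Adgre1 and Cd3e of leukocytes were at 0 in every library, and the fibroblast genes Dcn, Lum and Thy1 had at most 1 count. Other markers from the same lists were detected, with fibroblast Pdgfra at 504 to 1537 counts, Pdgfrb at 69 to 379 and Fap at 16 to 66, and endothelial Cdh5 at 51 to 138 and Pecam1 at 2 to 15. In summed CPM the 9 fibroblast markers ranged from 46.2 to 81.3 in PBS, 77.0 to 93.3 in MRC and 73.6 to 85.2 in MRC+L, and the 6 endothelial markers from 3.53 to 7.73, 4.66 to 5.90 and 4.20 to 5.36. The 8 leukocyte markers ranged from 7.16 to 12.1 in PBS, 17.0 to 22.8 in MRC and 18.6 to 20.1 in MRC+L, with Cd68 (135 to 358 counts) the only one of them above the filter. The 8 epithelial markers ranged from 1056 to 1876, 635 to 667 and 559 to 572. The fibroblast sum joins genes that edgeR called in opposite directions. Pdgfra rose from a mean of 44.2 CPM in PBS to 77.2 in MRC and 71.9 in MRC+L. Pdgfrb fell from 17.1 to 6.14 and 5.49 CPM. Fap fell from 3.53 to 1.34 CPM in MRC, and its 1.89 CPM in MRC+L was not called. The part of these marker levels in the results was not tested.

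More matrix genes fell than rose with the particles, with or without light. Of the 32 tested members, 15 fell in MRC against PBS (Col4a1, Col4a2, Col4a5, Col18a1, Col5a1, Col5a3, Col6a1, Col8a1, Col16a1, Lamb1, Sparc, Thbs1, Fbln2, Ccn1 and Loxl2). That is 46.9% of members, where 19.8% of all tested genes fell. Only Col12a1 and Serpinh1 rose, 6.25% of members against 17.8% of all tested genes, and 15 members were not called. Calls rest on the quasi-likelihood test of edgeR at a Benjamini-Hochberg adjusted p under 0.05 over all 13439 genes, of which 37.6% were called. The 15 genes that fell did so by 1.45-fold (Sparc) to 3.22-fold (Col5a3). The median log2 fold change was -0.61 over the 32 tested members and -0.03 over all tested genes. In 19 of the 32 the 3 MRC libraries lay wholly above or below the 3 PBS libraries, 59.4% against 48.3% of all tested genes.

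In MRC+L against PBS, 13 of the 32 fell (40.6%, against 24.5% of all tested genes) and 3 rose (9.38%, against 21.8%), with 46.2% of all tested genes called. The 13 are the genes that fell in MRC without Thbs1 and Loxl2, and the 3 are Col12a1, Serpinh1 and Col7a1. The median log2 fold change was -0.66 over the members and -0.03 over all tested genes. Both comparisons use the same 3 PBS libraries, so their likeness is not independent evidence. The MRC and PBS libraries, and the MRC+L and PBS libraries, did not overlap for 19 members each, 59.4% against 56.3% of all tested genes in the second comparison. In these bulk samples, fewer cells of a type and less RNA per cell cannot be told apart. Summed over all 41 members, the level was 6765, 4737 and 7767 CPM in PBS replicates 1 to 3, 4149 to 4922 in MRC and 4109 to 4636 in MRC+L, so PBS replicate 2 lay within the MRC range.

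**Figure D1:**
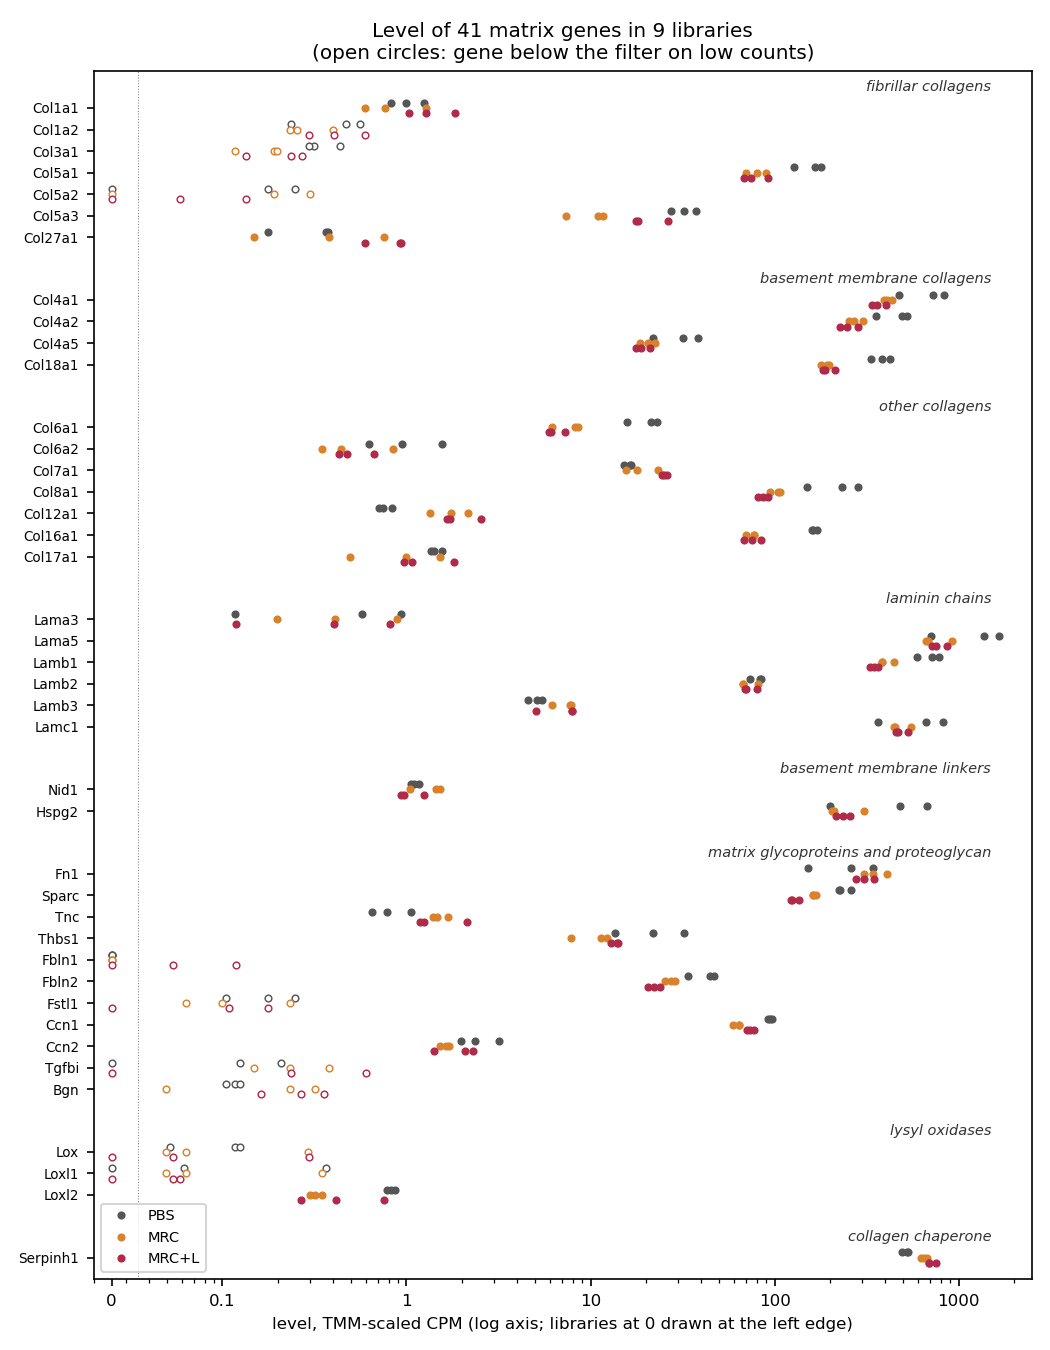
Level of each of the 41 matrix genes in TMM-scaled CPM (log axis) in the 9 libraries, grouped by role, 1 point per library. Open circles are the 9 genes below the filter on low counts, none with more than 11 counts in a library. PBS points lie to the right of the MRC and MRC+L points for Col16a1, Col18a1, Lamb1, Sparc and Ccn1.

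Without PBS replicate 2, 16 of the 17 calls in MRC and all 16 in MRC+L were kept. The counts became 3 higher and 17 lower in each comparison. Calls over all genes increased too, from 5050 to 6962 in MRC and from 6212 to 7659 in MRC+L. Lama5, Lamc1 and Hspg2 then fell in both comparisons, Lamb3 rose in MRC, Thbs1 fell in MRC+L and the call of Loxl2 in MRC was lost. The count of genes that rose in MRC was 0 without MRC replicate 1, and it was 1 when PBS replicate 1 or either of MRC replicates 2 and 3 was left out. In MRC+L it was 5 without PBS replicate 3.

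Levels per exonic length (RPKM) show which matrix genes these cells expressed most as RNA, and protein was not measured. In PBS, 15 members were at 10 RPKM or more, 6 between 1 and 10, and 20 under 1. The chaperone Serpinh1 was highest at 211 ± 8.44 RPKM (mean ± SD, n = 3). Basement membrane chains followed, with Lama5 at 109 ± 42.2, Col4a1 at 91.0 ± 24.8, Lamc1 at 74.6 ± 28.0, Lamb1 at 70.5 ± 9.86 and Col4a2 at 68.7 ± 13.4 RPKM. From Lama5 to Col4a2 neighbours in this order differed by less than their SD. Next came Sparc (62.4), Col18a1 (54.2), Ccn1 (46.7), Hspg2 (30.4), Col8a1 (28.4) and Col16a1 (24.1), before Fn1 at 21.6 ± 8.21 RPKM. Type I collagen was near the floor, with Col1a1 at 0.16 ± 0.03 and Col1a2 at 0.03 ± 0.01 RPKM. The laminin chains made 36.9% to 43.0% of the members' summed CPM and the 4 basement membrane collagens 18.6% to 25%, by library.

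The genes too low to test were mostly interstitial matrix genes. Col1a2 had 4 to 11 counts per library, Col3a1 2 to 7, Col5a2 0 to 6 and the small proteoglycan Bgn 1 to 6. The lysyl oxidases Lox and Loxl1 had 0 to 5 and 0 to 7. Tgfbi had 0 to 9, the secreted glycoprotein Fstl1 0 to 4 and Fbln1 0 to 2 counts. No statement on a change is possible for these 9 at this depth. A further 11 members were tested but had a mean under 10 CPM: Col1a1, Col6a2, Col12a1, Col17a1, Col27a1, Lama3, Lamb3, Tnc, Loxl2, Nid1 and Ccn2.

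All 4 basement membrane collagens fell in both comparisons. Col4a1 and Col4a2 encode the chains of the common type IV collagen trimer. They lie head to head on chromosome 8, Col4a1 at 11248423 to 11362826 on the minus strand and Col4a2 at 11362805 to 11499287 on the plus strand (GRCm39, as in the deposited tables), and their annotated starts share 22 bases. The 30 bases over this shared start are given on the plus strand from RefSeq (GRCm38.p6, chr8:11312801-11312830), with the shared bases in capitals.
Col4a2 and Col4a1: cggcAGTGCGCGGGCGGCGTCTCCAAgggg

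Col4a1 stood at 727, 476 and 836 CPM in PBS replicates 1 to 3, at 394, 434 and 409 in MRC and at 402, 359 and 337 in MRC+L. Every PBS library was above every exposed one, with PBS replicate 2 the nearest to them. Col4a1 fell by 0.72 ± 0.183 in MRC on the log2 scale (log2 fold change ± SE, 1.65-fold lower, adjusted p = 0.0114 by edgeR) and by 0.89 ± 0.184 in MRC+L (1.86-fold lower, adjusted p = 0.00312). Col4a2 stood at 489, 354 and 522 CPM in PBS, at 252, 300.4 and 269 in MRC and at 283, 247 and 225 in MRC+L, again with no overlap. It fell 1.66-fold in MRC (adjusted p = 0.00501) and 1.81-fold in MRC+L (adjusted p = 0.00173). The ratio of Col4a1 to Col4a2 in RPKM averaged 1.31 in PBS, 1.34 in MRC and 1.29 in MRC+L, with overlapping libraries, so it did not move beyond the spread between libraries while both chains fell.

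Col4a5, the X-linked chain of the specialised type IV network, stood at 32, 21.7 and 38.3 CPM in PBS, 20.5, 18.5 and 22.3 in MRC and 21.1, 18.9 and 17.6 in MRC+L. Here PBS replicate 2 lay among the MRC libraries, and the fall was 1.5-fold in MRC (adjusted p = 0.0343 by edgeR) and 1.60-fold in MRC+L (adjusted p = 0.0159). Col18a1, which carries the endostatin fragment, stood at 385, 334 and 423 CPM in PBS, 179, 198 and 193 in MRC and 213, 188 and 184 in MRC+L. Its PBS libraries were far above all 6 others. Col18a1 fell 2.0-fold in MRC (adjusted p = 0.000151) and 1.95-fold in MRC+L (adjusted p = 0.000137). The call of Col4a1 in MRC was lost without MRC replicate 1 (adjusted p = 0.0511). That of Col4a5 in MRC was lost without any of PBS replicates 1 and 3, MRC replicates 1 to 3 and MRC+L replicates 1 and 2 (adjusted p = 0.0503 to 0.114), and in MRC+L without MRC+L replicate 2 (0.0541) or 3 (0.0620).

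Among the 6 laminin chains only Lamb1, the beta1 chain, was called. Lamb1 (chr12:31315233-31379643, plus strand, GRCm39) stood at 718, 593 and 786 CPM in PBS, 385, 442 and 382 in MRC and 363, 347 and 329 in MRC+L. All PBS libraries lay above all MRC libraries, and these above all MRC+L libraries. Lamb1 fell by 0.79 ± 0.127 in MRC on the log2 scale (1.73-fold, adjusted p = 0.000898 by edgeR) and by 1.01 ± 0.127 in MRC+L (2.02-fold, adjusted p = 0.00016).

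Lama5, the alpha5 chain, stood at 1366, 710.3 and 1647 CPM in PBS, 683, 918 and 668 in MRC and 862, 754 and 718 in MRC+L. PBS replicate 2 lay among the exposed libraries, while PBS replicates 1 and 3 were above them all. The log2 fold change of Lama5 was -0.71 ± 0.264 in MRC (adjusted p = 0.0563 by edgeR) and -0.67 ± 0.264 in MRC+L (adjusted p = 0.0593), and without PBS replicate 2 it was -1.0 (adjusted p = 5.48e-07) and -0.95 (adjusted p = 8.08e-07). Lamc1, the gamma1 chain shared by most laminins, stood at 666, 365 and 820.4 CPM in PBS, 443, 549 and 449.5 in MRC and 530.0, 468 and 455 in MRC+L. In this gene PBS replicate 2 was the lowest of all 9. Its log2 fold change was -0.36 in MRC and -0.35 in MRC+L (adjusted p = 0.272 and 0.261), and -0.64 and -0.62 without PBS replicate 2 (adjusted p = 3.74e-05 and 4.22e-05). The calls also turned on the method. With all 9 libraries, Lama5 was called lower in both comparisons by DESeq2 (adjusted p = 0.0283 and 0.0376) and by edgeR without a filter (4.5e-05 and 5.83e-05). Lama5 and Lamc1 were both called with the length trend removed and by voom. The quality weights of voom were 7.30, 0.0784 and 0.387 for PBS replicates 1 to 3. All voom calls against PBS therefore rested mostly on PBS replicate 1.

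The beta2 chain Lamb2 had close levels in all groups, 80.0 ± 5.88 CPM in PBS, 72.3 ± 8.06 in MRC and 73.0 ± 6.04 in MRC+L (mean ± SD, n = 3), with log2 fold changes of -0.15 ± 0.115 and -0.13 ± 0.115 (adjusted p = 0.343 and 0.367 by edgeR). By voom it was called lower in both comparisons (log2 fold changes -0.24 and -0.21, adjusted p = 0.00629 and 0.00724). Relative to Lamb1, Lamb2 made a larger share in exposed cells: the RPKM ratio was 0.172 to 0.201 in PBS, 0.286 to 0.301 in MRC and 0.325 to 0.359 in MRC+L, and the 3 ranges did not overlap. The ratio of Lama5 to Lamc1 was 1.42 to 1.49 in PBS, above 1.08 to 1.21 in MRC and 1.15 to 1.18 in MRC+L. PBS replicate 2, with a ratio of 1.42, was close to the other PBS libraries by this measure, since both of its genes were low. The ratio of Lamb1 to Lamc1 was 0.799 to 1.36 in PBS, 0.672 to 0.725 in MRC and 0.571 to 0.618 in MRC+L. These ratios are descriptions without a test.

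**Figure D2:**
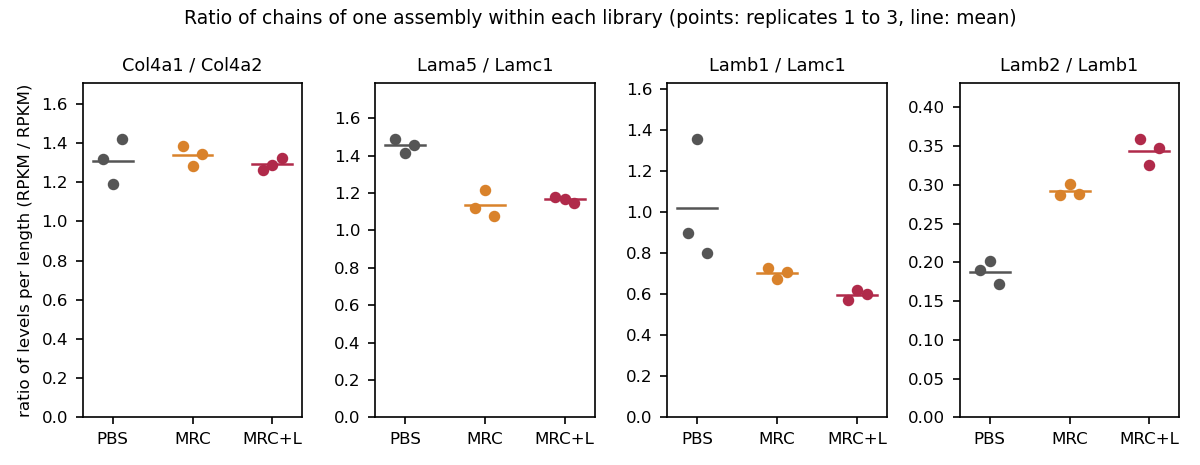
Ratio of levels per length (RPKM over RPKM, axes from 0) of related chains in each library, 1 panel per pair, with a line at the group mean. A laminin trimer holds 1 beta chain, so Lamb2 and Lamb1 are alternatives and not partners in 1 assembly. Col4a1 to Col4a2 overlaps between groups (means 1.31, 1.34 and 1.29), Lama5 to Lamc1 is highest in PBS (mean 1.45, against 1.14 and 1.17), and Lamb2 to Lamb1 is lowest in PBS (0.188, 0.292 and 0.344).

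The remaining laminin chains were low. Lamb3, the beta3 chain of laminin 332, an anchor of epithelial cells, stood at 4.54, 5.12 and 5.48 CPM in PBS, 7.79, 6.17 and 7.74 in MRC and 7.89, 7.97 and 5.03 in MRC+L. All MRC libraries were above PBS, but 1 MRC+L library lay within the PBS range. The log2 fold change of Lamb3 was 0.52 ± 0.21 in MRC and 0.46 ± 0.21 in MRC+L (adjusted p = 0.0747 and 0.0947 by edgeR). It was called in MRC without PBS replicate 2 (adjusted p = 0.0473) or MRC+L replicate 3 (0.0452), and in MRC+L without MRC+L replicate 3 (0.0263). With all 9 libraries voom called Lamb3 higher in both comparisons (adjusted p = 0.00137 and 0.0036). Lama3, the alpha3 chain, had at most 0.934 CPM in any library (log2 fold changes -0.16 ± 0.792 and -0.25 ± 0.803).

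Neither linker of the basement membrane was called by edgeR with all 9 libraries. Hspg2, which encodes perlecan, stood at 477, 199 and 670.0 CPM in PBS, 211, 304 and 204 in MRC and 256, 234 and 216 in MRC+L. PBS replicate 2 was the lowest of all 9 libraries and the other PBS libraries were the highest. The log2 fold change of Hspg2 was -0.90 ± 0.349 in MRC and -0.93 ± 0.35 in MRC+L (adjusted p = 0.0651 and 0.0509 by edgeR), and -1.27 and -1.29 without PBS replicate 2 (adjusted p = 2.69e-07 and 1.68e-07). With all 9 libraries Hspg2 was called lower in both comparisons by DESeq2 (adjusted p = 0.0295 and 0.0225), without a filter (1.17e-07 and 1.36e-08), with the length trend removed (0.000921 and 0.000307) and by voom. Nid1, which encodes nidogen-1, was low at 1.11 ± 0.0602 CPM in PBS, 1.34 ± 0.252 in MRC and 1.05 ± 0.167 in MRC+L.

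Across the members the low levels in PBS replicate 2 went with gene length. PBS replicate 2 was the lowest PBS library for 21 of the 32 tested members (65.6%) and for 45.2% of all tested genes. Among the 21 members with a mean of at least 10 CPM, the log2 ratio of PBS replicate 2 to the mean of PBS replicates 1 and 3 had a median of 0.07 in 4 genes under 5000 exonic bases. The median was -0.47 in 10 genes of 5000 to 8000 bases and -0.99 in 7 longer ones, where Hspg2 was lowest at -1.52. Col7a1, in the longest class, had a ratio of 0.07, and Col16a1, in the middle class, one of 0.08. The lengths that divide these classes were chosen with the data in view, and no test was made.

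**Figure D3:**
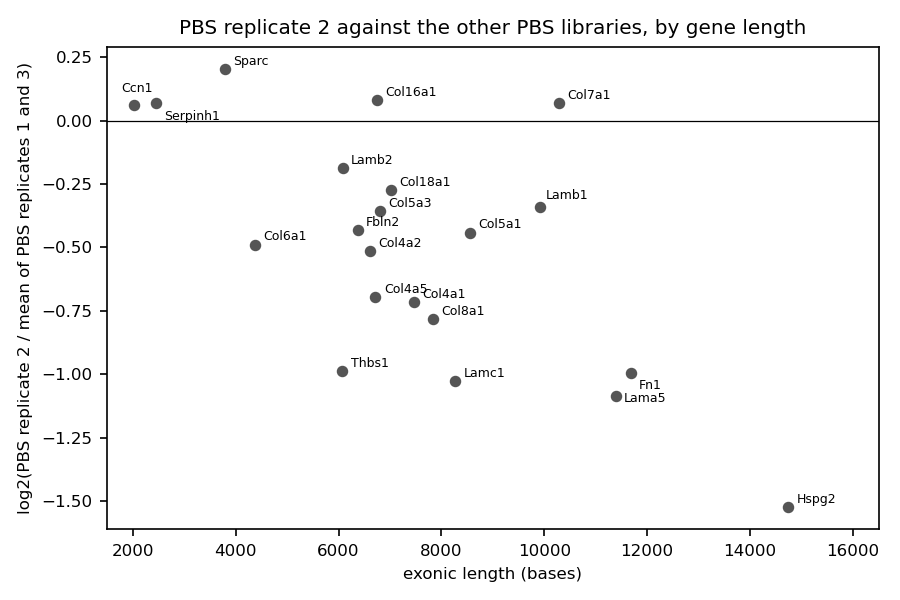
Log2 ratio of PBS replicate 2 to the mean of PBS replicates 1 and 3 against exonic length in bases, for the 21 matrix genes with a mean of at least 10 CPM, 1 labelled point per gene. Sparc, Ccn1 and Serpinh1 lie above 0 and the long genes Fn1, Lama5 and Hspg2 near or below -1.

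Fibrillar collagens were represented mainly by type V. Col5a1, which encodes a chain that seeds collagen fibrils, stood at 165, 127 and 179 CPM in PBS, 69.6, 90.0 and 79.9 in MRC and 91.6, 74.0 and 68.5 in MRC+L. PBS was above both other groups in every library. Col5a1 (chr2:27776437-27929526, plus strand, GRCm39) fell 1.97-fold in MRC (adjusted p = 0.0012 by edgeR) and 2.01-fold in MRC+L (adjusted p = 0.000799). Col5a3, a less common type V chain, stood at 37.4, 27.2 and 32.4 CPM in PBS, 7.35, 11.7 and 11 in MRC and 26.3, 17.6 and 18.2 in MRC+L, so that the light group lay between the others without overlap. Col5a3 (chr9:20681346-20726363, minus strand, GRCm39) fell by 1.69 ± 0.221 in MRC on the log2 scale (3.22-fold, adjusted p = 0.00028), the largest change among the called members. It fell by 0.64 ± 0.213 in MRC+L (1.56-fold, adjusted p = 0.0314), a call that was lost without PBS replicate 1 (0.108) or MRC+L replicate 2 (0.118) or 3 (0.111), and with the replicate number as a block (0.0567).

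Col1a1, the main chain of type I collagen, stood at 0.992, 0.823 and 1.24 CPM in PBS, 0.76, 1.28 and 0.595 in MRC and 1.03, 1.27 and 1.83 in MRC+L. The groups overlapped (log2 fold changes -0.22 ± 0.395 and 0.43 ± 0.381, adjusted p = 0.693 and 0.376 by edgeR). Its partner Col1a2, with 9, 4 and 9 counts in PBS, 4, 4 and 8 in MRC and 11, 6 and 5 in MRC+L, was not tested. Col27a1 was also under 1 CPM in every library, with log2 fold changes of 0.45 ± 0.61 and 1.39 ± 0.565 (adjusted p = 0.592 and 0.0672, the second 0.0468 without MRC replicate 3). In MRC+L voom called it higher (adjusted p = 0.0112).

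Of the other collagens, 3 fell in both comparisons. Col16a1 (chr4:129941633-129993076, plus strand, GRCm39), which associates with fibrils, stood at 161, 169 and 159 CPM in PBS, 69.7, 77.5 and 77.6 in MRC and 84.0, 68.1 and 75.5 in MRC+L. Its replicates were close and PBS was far above the rest. Col16a1 fell 2.18-fold in MRC (log2 fold change -1.12 ± 0.107, adjusted p = 4.2e-05 by edgeR) and 2.15-fold in MRC+L (adjusted p = 3.29e-05), the smallest adjusted p of the members in both. Col8a1, a short-chain collagen, stood at 233, 150.1 and 284 CPM in PBS, 93.8, 105 and 106 in MRC and 86.7, 91.5 and 81.3 in MRC+L, with no overlap between any of the groups. It fell 2.19-fold (adjusted p = 0.00145) and 2.57-fold (adjusted p = 0.00039). Col6a1, a chain of beaded filaments, stood at 21.3, 15.8 and 23.1 CPM in PBS, 6.21, 8.27 and 8.53 in MRC and 7.29, 5.96 and 6.09 in MRC+L. All 6 exposed libraries were under every PBS library, and Col6a1 fell 2.61-fold (adjusted p = 0.000346) and 3.11-fold (adjusted p = 0.000105).

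Higher levels were seen for Col7a1 and Col12a1. Col7a1, which forms the anchoring fibrils under epithelia, stood at 15.1, 16.6 and 16.4 CPM in PBS, 17.9, 23.3 and 15.7 in MRC and 25.9, 24.3 and 25 in MRC+L. MRC overlapped PBS, and MRC+L was above both. Col7a1 rose by 0.64 ± 0.148 on the log2 scale in MRC+L (1.56-fold, adjusted p = 0.00576 by edgeR), a call that was lost with the length trend removed (0.37, adjusted p = 0.106), while in MRC the log2 fold change was 0.24 ± 0.149 (adjusted p = 0.232). Col12a1, which associates with fibrils, was low, at 0.836, 0.706 and 0.747 CPM in PBS, 2.15, 1.75 and 1.34 in MRC and 1.73, 2.54 and 1.66 in MRC+L. Both exposed groups lay above PBS, and Col12a1 rose 2.26-fold in MRC (adjusted p = 0.0157) and 2.56-fold in MRC+L (adjusted p = 0.00625). The first call was lost without MRC replicate 1 (0.0662) and with the length trend removed (0.0599). Col6a2 and Col17a1, under 2 CPM, were not called (log2 fold changes -0.92 ± 0.466 and -1.01 ± 0.475 for Col6a2, and -0.54 ± 0.42 and -0.18 ± 0.412 for Col17a1). Col6a2 was called lower in MRC+L without PBS replicate 3 (adjusted p = 0.0493), and by voom in both comparisons (0.00275 and 0.000695).

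**Figure D4:**
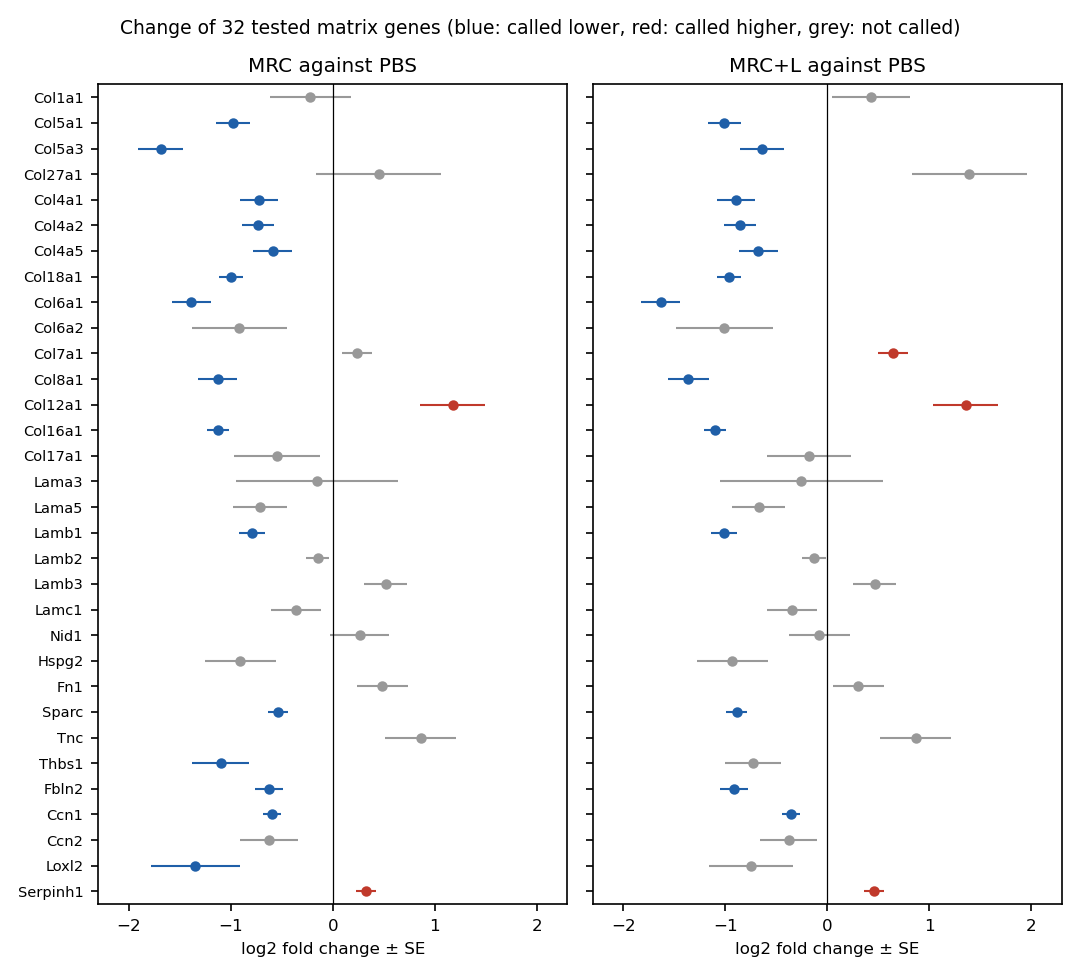
Log2 fold change ± SE of the 32 tested matrix genes in MRC against PBS (left) and MRC+L against PBS (right), with a line at 0; both panels share the 3 PBS libraries. Blue points mark genes called lower (15 left, 13 right), red points those called higher (2 and 3) and grey points those not called.

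Among matrix glycoproteins, Sparc, Fbln2 and Ccn1 fell in both comparisons. Sparc, a collagen-binding matricellular protein, stood at 227, 259 and 223 CPM in PBS, 161, 161 and 167 in MRC and 136, 123 and 124 in MRC+L. The groups descended in that order without overlap. Sparc (chr11:55285326-55314009, minus strand, GRCm39) fell 1.45-fold in MRC (adjusted p = 0.00226 by edgeR) and 1.85-fold in MRC+L (adjusted p = 8.5e-05). Fbln2, a basement membrane and elastic fibre glycoprotein, stood at 44.8, 34.0 and 46.9 CPM in PBS, 25.3, 28.7 and 27.2 in MRC and 20.6, 22.1 and 23.9 in MRC+L. It descended in the same order, 1.55-fold in MRC (adjusted p = 0.00543) and 1.89-fold in MRC+L (adjusted p = 0.000525).

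Ccn1, an integrin ligand also known as Cyr61, stood at 94.0, 97.2 and 92.0 CPM in PBS, 64.1, 59.6 and 63.9 in MRC and 73.1, 70.6 and 76.9 in MRC+L. Its lowest group was MRC, and no groups overlapped. Ccn1 (chr3:145352731-145355736, minus strand, GRCm39) fell by 0.59 ± 0.0888 on the log2 scale in MRC (1.51-fold, adjusted p = 0.000615 by edgeR) and by 0.36 ± 0.0885 in MRC+L (1.28-fold, adjusted p = 0.00803). The second call was lost with the length trend removed (-0.15, adjusted p = 0.26) and without a filter (0.0739), and Ccn1 is one of the shortest members. Ccn2, its relative CTGF, stood at 1.98, 3.18 and 2.37 CPM in PBS, 1.71, 1.51 and 1.64 in MRC and 1.40, 2.08 and 2.31 in MRC+L. Its MRC libraries were below PBS, but the difference did not pass (log2 fold change -0.63 ± 0.283, adjusted p = 0.107; -0.38 ± 0.281, adjusted p = 0.288 in MRC+L). Of its exonic bases 23.2% overlap a gene on the other strand, and the counting used no strand, so its level is uncertain.

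Thbs1, which encodes the matricellular protein thrombospondin-1, stood at 21.8, 13.6 and 32.3 CPM in PBS, 7.85, 12.2 and 11.5 in MRC and 14.0, 14.0 and 12.9 in MRC+L. The PBS libraries were spread widely, and the lowest, PBS replicate 2, lay within the MRC+L range. Thbs1 fell 2.14-fold in MRC (adjusted p = 0.0116 by edgeR, 0.0544 without MRC replicate 1). In MRC+L the log2 fold change was -0.73 ± 0.277 (adjusted p = 0.0538), and without PBS replicate 2 it was -0.98 (adjusted p = 4.42e-05). It was also called lower there with all libraries by DESeq2 (adjusted p = 0.0360), without a filter (0.000817), with the length trend removed (0.0150) and by voom. Fn1, the adhesive glycoprotein fibronectin, stood at 261, 152 and 343 CPM in PBS, 343, 409 and 306 in MRC and 349, 306 and 278 in MRC+L, with overlap between PBS and both other groups. It was not called by edgeR (log2 fold changes 0.49 ± 0.249 and 0.30 ± 0.249, adjusted p = 0.152 and 0.338). With all 9 libraries it was called higher by voom in both comparisons (adjusted p = 0.00183 and 0.0272) and without a filter in MRC (0.0046). Its value depended on the PBS libraries: without PBS replicate 3 it was called higher (0.77 and 0.59, adjusted p = 0.0154 and 0.0403), and without PBS replicate 2 the log2 fold changes were 0.22 and 0.04. Tnc, which encodes tenascin-C, was at or under 2.14 CPM in every library and not called by edgeR (0.86 ± 0.347 and 0.87 ± 0.348, adjusted p = 0.0744 and 0.0649, the second 0.0477 without PBS replicate 3). By voom Tnc was called higher in both comparisons (adjusted p = 0.0102 and 0.00488).

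The 3 lysyl oxidases among the members, enzymes that crosslink collagen and elastin, were hardly expressed. Others of the family were higher in PBS, Loxl3 at 39.4 ± 2.16 CPM and Loxl4, named after its values were seen, at 126 ± 50.5 CPM. Lox had 1, 2 and 2 counts in PBS, 1, 5 and 1 in MRC and 1, 0 and 5 in MRC+L, and Loxl1 had 7, 0 and 1, then 1, 6 and 1, then 1, 0 and 1. Loxl2 stood at 0.783, 0.823 and 0.871 CPM in PBS, 0.317, 0.349 and 0.298 in MRC and 0.756, 0.268 and 0.414 in MRC+L. PBS was above all exposed libraries, though MRC+L replicate 1 was close to it. Loxl2 fell 2.54-fold in MRC (adjusted p = 0.0329 by edgeR), and the call was lost without any 1 of PBS replicates 1 to 3, MRC replicates 1 to 3 or MRC+L replicate 3 (0.0518 to 0.102), with the block (0.0654) and without a filter (0.153). In MRC+L the log2 fold change was -0.75 ± 0.409 (adjusted p = 0.159 by edgeR), and voom called Loxl2 lower there (adjusted p = 0.0315).

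Serpinh1, which encodes the collagen chaperone HSP47, was the highest member per length and rose in both comparisons. It stood at 523, 533 and 494 CPM in PBS, 627, 672 and 646 in MRC and 693, 686 and 750.0 in MRC+L. The groups ascended in that order without overlap. Serpinh1 (chr7:98994583-99002446, minus strand, GRCm39) rose by 0.33 ± 0.0961 on the log2 scale in MRC (1.26-fold, adjusted p = 0.0224 by edgeR) and by 0.46 ± 0.0962 in MRC+L (1.37-fold, adjusted p = 0.00348). The call in MRC was lost without PBS replicate 1 (0.0641) or MRC replicate 1 (0.0516), 2 (0.0751) or 3 (0.0710), with the block (0.0650) and without a filter (0.0767).

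The comparison of MRC+L with MRC asks what the light added to the particles. With all 9 libraries edgeR called 0 of the 32 members and 0% of all tested genes (13439). The members' median log2 fold change was 0.01, against -0.01 over all tested genes. At an unadjusted p under 0.05 there were 4 members and 573 genes (4.26%), DESeq2 called 1 member (Col5a3) and 23 genes, and voom of limma with quality weights called 3 members (Col5a3, Col7a1 and Sparc) and 262 genes. Without PBS replicate 2, edgeR called Col5a3 (adjusted p = 0.00224) and Sparc (0.0274) among 89 genes. The MRC and MRC+L libraries did not overlap for 9 of the 32 (28.1%, against 24.4% of all tested genes): Ccn1, Col5a3, Col7a1, Col8a1, Fbln2, Lamb1, Serpinh1, Sparc and Thbs1.

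Fitted to the 6 MRC and MRC+L libraries alone, where 12955 genes and 29 of the members' tests could be made, edgeR called 5.05% of genes, 3.13% higher and 1.91% lower. Col5a3 and Col7a1 rose and Sparc fell. Col5a3 rose 2.07-fold with light (1.05 ± 0.161 on the log2 scale, adjusted p = 0.000556), while the fit to 9 libraries gave 1.04 ± 0.22 (adjusted p = 0.748). Col7a1 rose 1.33-fold (0.41 ± 0.119, adjusted p = 0.047). Sparc fell by 0.35 ± 0.064 (1.28-fold, adjusted p = 0.00283). Next were Ccn1 (0.24 ± 0.0702, adjusted p = 0.0515), Col8a1 (-0.23 ± 0.0714, adjusted p = 0.063) and Lamb1 (-0.22 ± 0.0679, adjusted p = 0.0646), which did not pass.

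**Figure D5:**
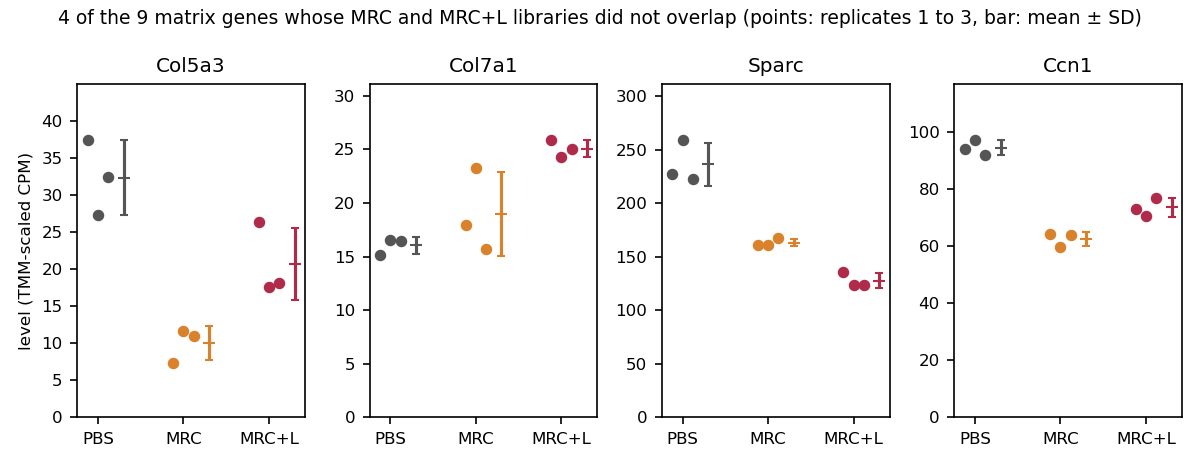
Level in TMM-scaled CPM (axes from 0) of Col5a3, Col7a1, Sparc and Ccn1 in the 3 libraries of each group, with the mean ± SD beside the points. With light, Col5a3 and Ccn1 lie between MRC and PBS, Col7a1 lies above both (25.1 ± 0.787 CPM, against 16.1 ± 0.789 in PBS), and Sparc lies lowest.

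Genes that work with this matrix were read from written lists, and their counts stand beside the shares of all tested genes given above. Those shares were 17.8% higher and 19.8% lower in MRC, and 21.8% higher and 24.5% lower in MRC+L. Of 26 genes that modify, fold or process collagen, 21 were tested. In MRC 6 rose and 6 fell (median log2 fold change -0.10), and in MRC+L 6 rose and 8 fell (median -0.25). Bmp1, the C-proteinase that trims procollagen, fell from 316 ± 5.45 CPM in PBS to 164 ± 9.04 in MRC and 139.9 ± 3.00 in MRC+L (1.93-fold and 2.26-fold, adjusted p = 4.49e-05 and 8.68e-06 by edgeR). Its enhancer Pcolce fell from 333 ± 90.1 to 122 ± 11.1 and 107 ± 1.77 CPM (2.73-fold and 3.12-fold). The lysyl hydroxylase Plod1 fell from 162 ± 1.04 to 63.5 ± 4.84 and 80.5 ± 21.9 CPM. In the other direction, Mia3, which helps load procollagen for export, rose from 125 ± 29.3 to 232 ± 13.7 and 267 ± 12.1 CPM (1.85-fold and 2.13-fold, adjusted p = 0.0018 and 0.000442).

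Of 18 other crosslinking and elastic fibre genes, 10 were tested, and 6 fell in MRC and 7 in MRC+L while the rest were not called (medians -0.83 and -0.90). Loxl3, a further lysyl oxidase, stood at 40.0, 37.0 and 41.3 CPM in PBS, 10.7, 11.9 and 12.9 in MRC and 8.37, 8.5 and 7.99 in MRC+L. It fell 3.32-fold (adjusted p = 5.74e-06 by edgeR) and 4.75-fold (adjusted p = 1.39e-06), with 3 groups apart. The latent TGF-beta binding proteins Ltbp3 (3.05-fold and 3.48-fold) and Ltbp2 (2.13-fold and 2.54-fold) and the fibulin Efemp2 (2.3-fold and 2.91-fold) fell as well. Of 20 matrix receptors, 19 were tested, and 8 fell in MRC and 10 in MRC+L while the rest were not called (medians -0.41 and -0.44). Itga3, the integrin alpha chain that binds laminin, fell from 900.4 ± 138 to 347 ± 27.4 and 271 ± 27.7 CPM (2.59-fold and 3.32-fold), and the heparan sulphate receptors Sdc2, Sdc3 and Sdc4 fell 1.87-fold to 2.37-fold.

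Of 22 other matricellular genes and proteoglycans, 12 were tested, and 2 rose and 5 fell in MRC (median -0.43), 4 rose and 5 fell in MRC+L (median -0.47). Ccn4, a relative of Ccn1, rose from 8.83 ± 2.21 to 45.7 ± 1.58 and 57.3 ± 5.01 CPM (5.18-fold and 6.49-fold, adjusted p = 7.54e-06 and 2.81e-06 by edgeR). Spp1, which encodes osteopontin, fell from 919 ± 212 to 487 ± 30.3 and 428 ± 22.1 CPM. Tnxb fell 2.38-fold and 1.62-fold, the second call being lost without PBS replicate 1 (adjusted p = 0.0567) or MRC+L replicate 2 (0.0700). Thbs3 fell 1.95-fold in MRC+L, and in MRC its log2 fold change was -0.37 (adjusted p = 0.0965, and 0.00731 without PBS replicate 2).

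Of 26 collagen chains outside the 41, 6 were tested. Of these 2 rose in MRC and 3 in MRC+L, and the rest were not called (medians 0.88 and 0.95). Col11a2, a fibrillar chain best known from cartilage, stood at 1.88, 1.76 and 2.12 CPM in PBS, 9.18, 6.58 and 5.65 in MRC and 7.51, 10.6 and 9.70 in MRC+L, all exposed libraries lying above PBS. It rose 3.70-fold (adjusted p = 0.000227 by edgeR) and 4.82-fold (adjusted p = 5.39e-05). Col20a1 rose 2.46-fold and 4.02-fold from 0.485 ± 0.219 CPM, the first call being lost without MRC replicate 1 (adjusted p = 0.0606) or 3 (0.0580). Col4a4 rose 2.79-fold in MRC+L (adjusted p = 0.0148), a call lost without PBS replicate 1 (0.0588) or MRC+L replicate 1 (0.0537). Col4a6 was not called (log2 fold changes -1.0 and -1.12), but was called lower in both comparisons without PBS replicate 2 (-1.30 and -1.41, adjusted p = 0.0196 and 0.0118).

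Of 24 TGF-beta and YAP/TEAD regulators and targets, which control many matrix genes, all were tested, and 5 rose and 7 fell in MRC, 7 rose and 7 fell in MRC+L (medians -0.04 and -0.06). Over all tested genes 17.8% rose and 19.8% fell in MRC, and 21.8% and 24.5% in MRC+L. The ligands Tgfb1 (118 ± 14.7 CPM in PBS, 41.5 ± 3.17 in MRC, 34.0 ± 3.29 in MRC+L) and Tgfb3 (51.9 ± 1.68, 22.7 ± 1.40 and 16.9 ± 0.596 CPM) fell. The YAP/TEAD target Ankrd1 fell from 75.1 ± 8.58 to 36.5 ± 2.05 and 30.8 ± 2.0 CPM (2.05-fold and 2.44-fold, adjusted p = 0.000102 and 2.19e-05 by edgeR).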

How the data were processed

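Per the labels, Trizol was used to extract RNA from 4T1 cells, and a TruSeq kit was used to make libraries. Raw counts per gene were deposited by the authors, 1 table a library. The counts came from featureCounts 2.0.1 over Ensembl release 104 exons on GRCm39, per the file headers, with no strand option. The aligner is not given in the sources used here. Exonic lengths are those of the deposited count tables. Symbols came from GENCODE M21, matched by gene ID (94.0% of IDs had one). The files held no column outside these 9 samples.

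Groups follow the labels. edgeR 4.0.16 in R 4.3.3 was run on all 9 libraries and all genes that passed a minimum count of 10 and total of 15, with TMM factors, 1 mean per group, quasi-likelihood tests and Benjamini-Hochberg adjustment (called under 0.05). Levels are TMM-scaled CPM, and RPKM divides these by exonic length. SEs are the log2 fold change divided by the root of the F statistic. Alternatives used DESeq2 1.42.0, limma 3.58.1 (voom with quality weights), DESeq2 size factors, no filter, removal of the trend with gene length, a replicate block, 6 libraries alone, and leaving out each library. The code was tested on simulated data. Figures used Python 3.11.15, pandas 2.3.3 and matplotlib 3.10.9.

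Named genes are the 12 members with the smallest adjusted p in each comparison with PBS, the 8 in MRC+L against MRC, members that share an assembly, the lysyl oxidases, Ccn1, Ccn2 and Serpinh1, plus up to 4 genes per list by smallest adjusted p. Results for some list genes are left out here. All members and lists were chosen with earlier results of these data known. Replicate pairs differed beyond sampling noise (chi-square per degree of freedom 3.83 to 157). Promoters came from RefSeq tables on GRCm38.p6 and were not combined with the GRCm39 coordinates of the counts.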

Additional observations from a re-analysis of the deposited data

How the results depend on the processing

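No called gene changed sign under an alternative. Against PBS, uncalled low genes did: Col1a1 and Col27a1 in MRC (leaving out 1 library, -0.59 to 0.01 and -0.25 to 0.89) and Lama3 in MRC (-0.84 to 0.44) and MRC+L (-1.06 to 0.34). In MRC+L against MRC, some uncalled genes changed sign as well. Replicate numbers did not pair the libraries: correlations of same-numbered deviations from the group means were -0.19 to 0.04. With the number as a replicate block, 1 member rose and 14 fell in MRC, 3 rose and 12 fell in MRC+L, and 4283 and 5490 genes were called. In MRC against PBS the count that rose was 1 with the length trend removed, 5 with voom, and 0 to 3 leaving out 1 library, while 11 to 17 fell leaving out 1 library. In MRC+L against PBS 7 rose and 20 fell with voom, and 3 to 5 rose and 11 to 17 fell leaving out 1 library. In MRC+L against MRC 1 member rose without a filter and with DESeq2, 2 rose and 1 fell with voom and with 6 libraries alone, and 0 to 1 rose and 0 to 1 fell leaving out 1 library. Over all genes, voom called 8851 in MRC and 9856 in MRC+L, against 5050 and 6212. Among the PBS libraries, voom gave by far the largest weight to replicate 1 (7.30, against 0.0784 and 0.387 for replicates 2 and 3). In MRC+L against MRC, 15 genes were called without a filter, 4 with the length trend removed, 23 with DESeq2, 262 with voom, 654 with 6 libraries, 2, 89 and 1 without PBS replicates 1, 2 and 3, against 0. The cause of these shifts was not tested. Member calls that were lost or gained on leaving out 1 library are given in the report beside each gene. Members under 10 CPM are limited by their counts, and the 9 under the filter cannot be judged.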
